A study of Mus musculus with 16 samples.

Results

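The genes described here are 6 components of the p53 response in the mouse: Trp53 itself, Mdm2, Cdkn1a, Gadd45a, Ccng1 and Bax. Members were the probe sets of the Affymetrix U74Av2 array whose annotation names 1 of these genes and no other. The rule found 5 probe sets among 12488, and they cover 4 of the 6 genes. Mdm2 has 1 probe set (98110_at), Cdkn1a has 2 (98067_at and 94881_at), Gadd45a has 1 (102292_at) and Ccng1 has 1 (160127_at). Trp53 and Bax have 0 probe sets of their own in this annotation and are not analysed here.

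Total RNA from 16 mouse samples was hybridised to 1 array each. A Cdk4 +/- embryonic stem (ES) cell line and E14, the +/+ ES line that the labels name as its control, have 3 arrays each. Both grew without feeder cells, and their RNA was isolated with RNeasy. An Abca1 +/- ES line and ESVJ, its +/+ parental line, also have 3 arrays each. These 2 lines grew on irradiated mouse embryonic fibroblast feeders. The feeders were depleted, the cells were kept on gelatin for a short period, and RNA was isolated with Trizol and RNeasy. Livers of Abca1 +/- mice and of +/+ mice have 2 arrays each, and all these mice carried a mixed background of 129/SvJ and C57BL6/J. Each ES group is 1 line, so a mutation cannot be told apart from other differences between a line and its control. Likewise E14 and ESVJ differ in line, feeders and RNA isolation at once. Nothing in the labels tells whether arrays of 1 group were separate cultures or animals, and a p here can measure no more than the spread between the arrays.

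The p53 protein is a transcription factor that is stabilised by DNA damage and other stress. Among its targets, Cdkn1a encodes p21, an inhibitor of cyclin-dependent kinases that holds cells in G1. Mdm2 encodes the ubiquitin ligase that marks p53 itself for degradation, which closes a negative feedback loop. Ccng1 encodes cyclin G1, which brings the phosphatase PP2A to Mdm2. Gadd45a encodes a small stress protein that binds PCNA, Cdk1 and the kinase Map3k4, and it is also induced without p53, for example through ATF4. Mouse ES cells are known for a short G1 phase and for low p21. Cdk4 is the kinase that, with D-type cyclins, starts the phosphorylation of the retinoblastoma protein. Abca1 exports cholesterol from cells.

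The 250 bases before the start site are shown for 3 members, because they differ in what lies there. The sequences are RefSeq's, on GRCm38.p6, and 6 of 6 genes had an entry. All 32851 windows of the table, each from 250 bases before to 50 bases after a start site, were searched for the p53 response element, taken as 2 adjacent copies of the p53 consensus decamer with at most 1 mismatch in all. The element reads alike on both strands. It was found in 29 windows (0.0883%), and those of Cdkn1a and Ccng1 were among them. The Cdkn1a element began 51 bases before the more upstream of its 2 start sites in the table. The Ccng1 element began 195 bases before its start site, and each element had 1 mismatch. The window of the other Cdkn1a start site, further downstream at chr17:29093519-29093818, held 0 elements, and so did the windows of Mdm2, Gadd45a, Trp53 and Bax. The known p53 elements of Mdm2 and of human GADD45A lie in introns, outside these windows. The octamer ATTTGCAT, searched on both strands and chosen after the Gadd45a sequence was seen, occurred at 2 places before Gadd45a, 97 and 70 bases from the start site, and in 570 of all windows (1.74%). Capitals mark the p53 element in the windows of Cdkn1a (chr17:29090729-29090978, plus strand) and Ccng1 (chr11:40755287-40755536, minus strand) and the octamers in that of Gadd45a (chr6:67037408-67037657, minus strand), each written 5′ to 3′.
Cdkn1a: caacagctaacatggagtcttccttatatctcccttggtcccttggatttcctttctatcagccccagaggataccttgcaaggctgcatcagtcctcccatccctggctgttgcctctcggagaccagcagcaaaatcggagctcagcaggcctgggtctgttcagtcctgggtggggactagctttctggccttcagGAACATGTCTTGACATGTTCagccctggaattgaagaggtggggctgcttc
Ccng1: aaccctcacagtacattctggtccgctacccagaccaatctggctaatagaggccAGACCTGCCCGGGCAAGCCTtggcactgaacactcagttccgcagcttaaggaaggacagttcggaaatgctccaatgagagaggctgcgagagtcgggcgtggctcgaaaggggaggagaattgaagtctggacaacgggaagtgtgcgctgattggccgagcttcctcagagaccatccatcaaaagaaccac
Gadd45a: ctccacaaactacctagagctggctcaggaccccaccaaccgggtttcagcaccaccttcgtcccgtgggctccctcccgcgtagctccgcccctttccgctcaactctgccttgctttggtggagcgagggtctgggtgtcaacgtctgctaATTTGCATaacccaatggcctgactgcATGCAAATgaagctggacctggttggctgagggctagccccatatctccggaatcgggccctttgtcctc

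A signal here is a MAS5 intensity after each array was brought to a trimmed mean of 500, and the median per array lay between 126.1 and 169.7. Log2 differences and folds are on the scale of signal plus 32, which understates differences of low signals. The 4 ES groups were fitted together with limma, and "passed" means a Benjamini-Hochberg adjusted p under 0.05 over all probe sets tested. ES arrays of the same group correlated at 0.970 to 0.990 and ES arrays of different groups at 0.925 to 0.986. Abca1 +/- livers correlated at only 0.937 with each other, +/+ livers at 0.968. Cdk4, the gene mutated in the Cdk4 +/- line, had a signal of 3678 ± 209 in that line and 5716 ± 188 in E14 (SD, n = 3 each) at 160538_at, and passed (log2 -0.63, limma adjusted p = 0.00436). Its other probe set, 101017_at, differed by -0.70 and did not pass. Abca1 did not pass in its ES line (log2 -0.26 at 94354_at). In liver its 2 probe sets pointed in opposite directions (0.92 at 94354_at and -1.0 at 97198_at), so the Abca1 +/- livers are known by their label alone. Probe positions were not used here.

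Across all groups, Mdm2, Cdkn1a and Ccng1 shared one split of the ES lines and Gadd45a had another order. Mdm2, Cdkn1a and Ccng1 were highest in the feeder-independent lines, E14 and Cdk4 +/-, lower in the feeder-grown lines, Abca1 +/- and ESVJ, and lowest in liver at Mdm2, Ccng1 and 98067_at of Cdkn1a. Gadd45a was highest in the Cdk4 +/- line, followed by Abca1 +/-, ESVJ, E14 and both liver groups. Within the split, neither Cdk4 +/- and E14 nor Abca1 +/- and ESVJ differed at Mdm2, Cdkn1a or Ccng1 beyond the threshold of the tests below, and the liver groups did so at no member. In the Gadd45a order, Abca1 +/- and ESVJ did not differ beyond it.

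**Figure D1:**
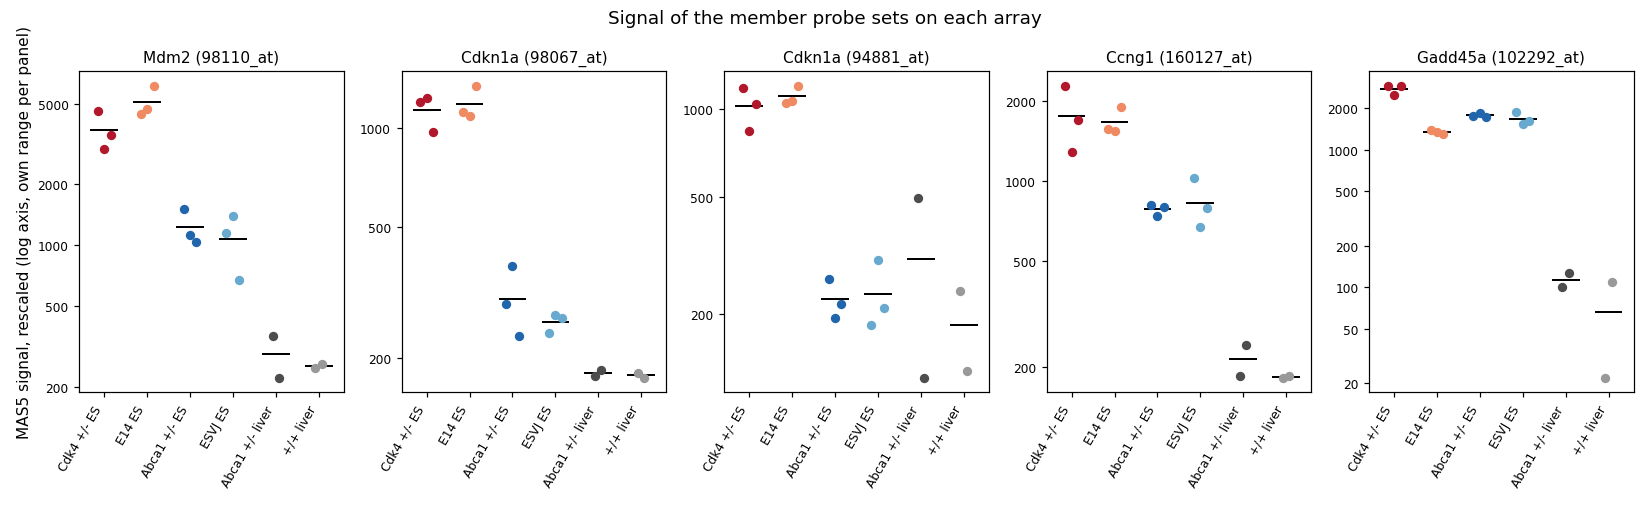
Rescaled MAS5 signal (log axis, a separate range per panel) of the 5 member probe sets on each of the 16 arrays, with a line at each group mean. Mdm2, Cdkn1a and Ccng1 are high in Cdk4 +/- and E14 cells, while Gadd45a is highest on the 3 Cdk4 +/- arrays, at 2481.2 to 2915.6.

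Mdm2, Cdkn1a and Ccng1 were higher in E14 than in ESVJ cells, by 4.8-fold for Mdm2, more than 4-fold at both Cdkn1a probe sets and 2-fold for Ccng1. Gadd45a did not follow them and was slightly lower. All 5 member probe sets passed in this comparison, where 42.6% of all 7349 probe sets tested did so, 19.8% as higher and 22.8% as lower. Passing was common in this comparison, and 52% of probe sets had groups without overlap. Bulk RNA cannot tell fewer cells of a type apart from less RNA per cell.

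Mdm2 had signals of 4446.5, 4701.8 and 6137.4 in E14 cells, against 1153.1, 1388.3 and 670.23 in ESVJ cells. The groups did not overlap, and the lowest E14 array lay above the highest ESVJ array by a wide margin. The log2 difference was 2.26 ± 0.23 (SE), with a 95% interval of the fold from 3.4 to 6.79 (limma adjusted p = 2.32e-06). Only 1.16% of all probe sets had a higher difference.

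Cdkn1a, the p21 gene, had signals of 1118.9, 1087.6 and 1346.4 in E14 cells at 98067_at, against 237.8, 270.91 and 264.08 in ESVJ cells. At 94881_at the signals were 1047.6, 1066.7 and 1202.6 in E14 cells, against 183.13, 306.95 and 210.31 in ESVJ cells. Both probe sets separated the lines without overlap and by similar amounts. The log2 differences were 2.07 ± 0.17 (limma adjusted p = 1.68e-07) and 2.12 ± 0.18 (limma adjusted p = 3.00e-07), or 4.19-fold and 4.36-fold.

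Ccng1, the cyclin G1 gene, had signals of 1577.4, 1544.7 and 1900.1 in E14 cells, against 1025.1, 672.74 and 791.29 in ESVJ cells. The groups did not overlap. The log2 difference was 1.0 ± 0.19 (limma adjusted p = 6.29e-04), a fold of 2 with a 95% interval from 1.52 to 2.64.

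Gadd45a had signals of 1382.7, 1347 and 1306.4 in E14 cells, against 1894.7, 1543.7 and 1609.5 in ESVJ cells. E14 arrays lay below all ESVJ arrays, yet the gap was small beside that of the other members. The log2 difference was -0.31 ± 0.11 (limma adjusted p = 0.039). It passed in only 7 of 15 alternative settings, and the call was lost without replicate 1 or 3 of ESVJ (log2 -0.22 and -0.34, adjusted p = 0.155 and 0.0544) or without any one of the E14 arrays (adjusted p = 0.0651 to 0.0878).

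The Cdk4 +/- and Abca1 +/- lines, which share no array with the pair above but differ in the same culture and RNA isolation, were compared in the same fit after those values had been seen. Mdm2 had signals of 4611.9, 2984.2 and 3487.8 in Cdk4 +/- cells, against 1515.8, 1117 and 1041.3 in Abca1 +/- cells, a log2 difference of 1.56 ± 0.23 (limma adjusted p = 9.37e-05). At 98067_at Cdkn1a had signals of 1204.5, 1234.2 and 975.59 in Cdk4 +/- cells, against 292.12, 381.98 and 232.31 in Abca1 +/- cells, a log2 difference of 1.83 ± 0.17 (limma adjusted p = 5.81e-07). At 94881_at it had 1180.1, 843.88 and 1042.7 in Cdk4 +/- cells, against 263.6, 194.29 and 215.72 in Abca1 +/- cells, a log2 difference of 2.04 ± 0.18 (limma adjusted p = 4.57e-07). Each of these p53 targets was thus again higher in the feeder-independent line, with no overlap.

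Ccng1 had signals of 2287.5, 1283.4 and 1703.5 in Cdk4 +/- cells, against 815.1, 741.68 and 801.9 in Abca1 +/- cells, a log2 difference of 1.09 ± 0.19 (limma adjusted p = 3.16e-04). Gadd45a was higher here, with 2915.6, 2481.2 and 2900.8 in Cdk4 +/- cells, against 1766.7, 1850.5 and 1730.9 in Abca1 +/- cells (log2 0.62 ± 0.11, limma adjusted p = 5.33e-04). It is the member whose direction differed between these pairs of lines. All 5 probe sets passed and none overlapped, where 40.5% of all probe sets tested passed and 51.9% had groups without overlap.

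Most of the other p53 target genes tested were higher in the feeder-independent lines. The list of further targets held 47 genes, of which 26 were on the array and 21 were tested. It was chosen with earlier results of these data known, so its counts are a description only. Of the 21, 13 (61.9%) were higher in E14 than in ESVJ cells, 3 were lower and 5 did not pass. Of all probe sets 19.8% were higher and 22.8% lower. The median log2 difference of the 21 targets was 0.61, against -0.09 over all probe sets. Igfbp3, which encodes a protein that binds insulin-like growth factors, differed by 2.82 (adjusted p = 3.24e-09). Perp, an apoptosis effector that is also a desmosome protein, differed by 2.66 (adjusted p = 1.41e-09), and Plk2, a polo-like kinase, by 2.61 (adjusted p = 1.57e-09). Sfn, the 14-3-3 sigma gene of the G2 arrest, differed by 2.51 (adjusted p = 1.82e-08). The 3 lower genes were Sesn1 (-0.98), a sestrin gene, Plk3 (-0.59), a polo-like kinase, and Pml (-0.53), the nuclear body protein.

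The Cdk4 +/- and Abca1 +/- lines gave similar values for these targets. Of the 21, 12 (57.1%) were higher in Cdk4 +/- cells and 2 were lower, against 19.4% and 21.1% of all probe sets, with a median of 0.43. In both pairs of lines 11 of the targets were higher and 2 lower, and 0 passed in opposite directions. Plk2 differed by 2.85, Perp by 2.81, Sfn by 1.92 and Igfbp3 by 1.72 between Cdk4 +/- and Abca1 +/- cells. Under 15 other settings, between 11 and 13 targets were higher in E14 cells and between 9 and 12 in Cdk4 +/- cells.

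**Figure D2:**
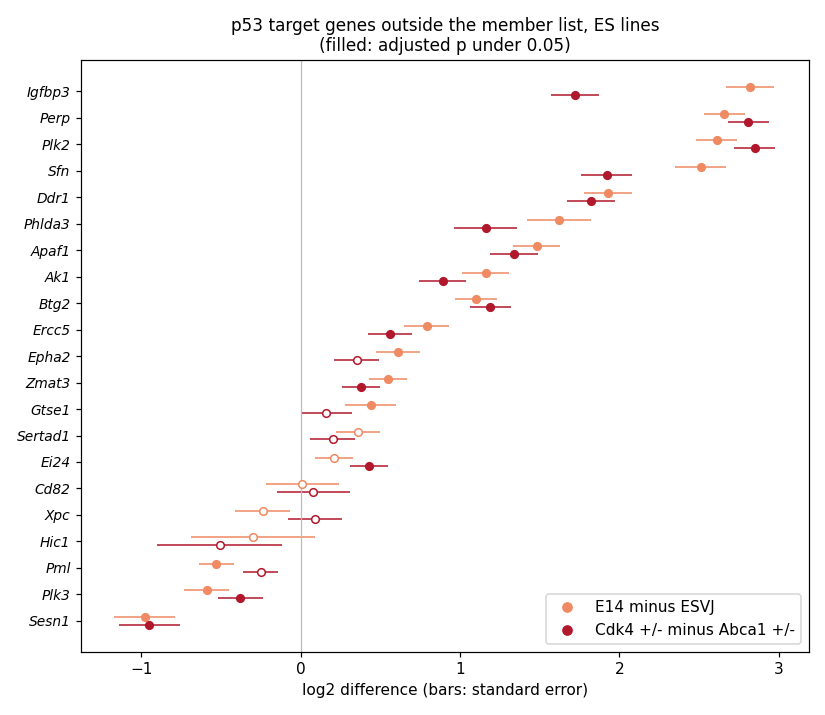
Log2 differences with standard errors of the 21 further p53 targets tested, E14 minus ESVJ and Cdk4 +/- minus Abca1 +/-, with filled points for an adjusted p under 0.05. In both pairs of lines 11 targets, Igfbp3, Perp, Plk2 and Sfn among them, were higher and Sesn1 and Plk3 were lower.

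Lists of genes around the members were counted between the +/+ lines in the same way, beside the 19.8% of all probe sets that were higher and the 22.8% that were lower. Of 20 p53 regulators, 10 were lower in E14 than in ESVJ cells and 1 was higher. The higher one was Cdkn2a (1.66, adjusted p = 8.15e-05), whose locus encodes p16 and the Mdm2 inhibitor p19Arf. Lower ones included Prkdc (-1.14) and Atm (-1.43), both DNA damage kinases, and Gnl3 (-0.75), the nucleostemin gene. Mdm4, the partner of Mdm2, was lower too (-0.58, adjusted p = 0.0229). Between Cdk4 +/- and Abca1 +/- cells Mdm4 differed by -0.03 and did not pass, while 7 of the 20 regulators were lower and 2 higher. Of all probe sets 21.1% were lower and 19.4% higher in that comparison. Over 15 other settings, between 4 and 10 regulators were lower in E14 than in ESVJ cells. The next list held CDK inhibitors and G1 kinases, but also G1 cyclins, Rb1, Rbl1, E2F genes and Pcna. Of its 15 genes tested, 4 were higher and 4 lower in E14 cells, close to the shares of all probe sets. So were the lists of the Gadd45 family, cyclin G and the BCL2 family given below. Cdkn2b, the p15 gene, was higher (3.14, adjusted p = 3.92e-08), and so was Cdkn1c, the p57 gene (1.07, adjusted p = 3.61e-05), while the D-type cyclin gene Ccnd3 was lower (-0.85, adjusted p = 3.43e-05). Of the other CDK inhibitor genes tested, Cdkn2a was higher, as given above, Cdkn2d was lower (-0.69) and Cdkn2c did not pass. Of the Gadd45 family and its partners 2 of 7 were higher and 2 lower. Gadd45b and Gadd45g, the paralogs of Gadd45a, were higher in E14 cells by 1.97 (adjusted p = 6.94e-06) and 2.07 (adjusted p = 2.02e-07), unlike Gadd45a. Of 9 genes of the cyclin G family and of PP2A, the partner of cyclin G1, 2 were higher and 1 lower. The higher ones were the PP2A subunit genes Ppp2cb (0.82) and Ppp2r5d (0.96), and the lower one was Ppp2r5a (-0.77).

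Of 25 cell cycle genes known to be repressed through p53 and p21, 0 were higher and 14 (56%) lower in E14 cells, with a median of -0.41. Bub1 (-0.92), Top2a (-1.0), Mki67 (-1.0) and Aurka (-0.76), which act in or mark dividing cells, were among them. In the Cdk4 +/- line 12 of the 25 were lower than in the Abca1 +/- line and 2 were higher. Of all probe sets 21.1% were lower and 19.4% higher between these 2 lines. The lower count in E14 cells ranged from 7 to 15 over the alternatives. In the list of the BCL2 family and caspases 4 of 17 were higher and 3 lower. Bcl2l1, the Bcl-xL gene, was higher in E14 cells (1.73, adjusted p = 1.64e-07) and Bnip3 lower (-2.08, adjusted p = 1.17e-06). Apaf1, the apoptosome scaffold and also a p53 target, was higher (1.48, adjusted p = 2.06e-06). Of the ATF4 and stress list 2 of 19 were higher and 4 lower. Cebpb (1.70) and Atf3 (0.97), both transcription factor genes, were the higher ones. Xbp1 (-1.41), a transcription factor gene of the unfolded protein response, Ppp1r15a (-0.61), a phosphatase subunit gene, and Atf4 itself (-0.39, adjusted p = 0.0304) were among the lower ones. Over 15 other settings, between 1 and 5 genes of this list were lower in E14 cells. Between Cdk4 +/- and Abca1 +/- cells 7 of the 19 were higher and 2 lower, where 19.4% and 21.1% of all probe sets were. Atf4 was higher there (0.48, adjusted p = 0.0112).

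Some markers of other cell states moved with the same split of the lines. Of 12 ES cell markers, 10 were lower and 1 higher in E14 than in ESVJ cells, where 22.8% and 19.8% of all probe sets were. The markers had a summed signal of 35361 to 41657 in E14 cells and 58413 to 65998 in ESVJ cells. Esrrb was among the lower ones, with 50.9 ± 11.2 in E14 cells and 283 ± 58 in ESVJ cells (SD, n = 3 each). The summed signal of the ES markers was 42809 to 49383 in Cdk4 +/- cells and 56976 to 66145 in Abca1 +/- cells. Of the 12, 7 were lower and 1 higher in Cdk4 +/- than in Abca1 +/- cells, where 21.1% and 19.4% of all probe sets were. Klf4 did not follow the split, with 2435 to 2839 in Cdk4 +/- cells and 1874 to 2125 in Abca1 +/- cells. Nanog overlapped, with 6623 to 7241 in Cdk4 +/- cells and 6075 to 7356 in Abca1 +/- cells. The epithelial keratin gene Krt19, fixed as a marker of bile duct cells, had 2562 ± 175 in E14 cells and 54.4 ± 25.7 in ESVJ cells. The keratin Krt7 and the smooth muscle actin Acta2 were also higher in E14 cells (log2 4.19 and 2.59), while the macrophage gene Cd68 (-1.10) and the B cell gene Cd79a (-0.88) were lower. Of the 10 genes of that list tested, these 3 were higher and these 2 lower, with a median of -0.09. For all 17 markers of liver cells other than hepatocytes, the list that holds these genes, the sum was 8945 to 9799 in E14 cells and 2828 to 3149 in ESVJ cells. All ESVJ signals of Krt7 (13.8 to 30.6) and Krt19 (25 to 71.6) were under the level of the signal filter. So were all E14 signals of Esrrb (39.1 to 61.4). The filter used the mean over all ES arrays, so Krt7, Krt19 and Esrrb entered the fit through other lines. The sizes of their differences are therefore not firm.

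For the 20 feeder fibroblast markers the sum was 9037 to 10257 in E14 cells, which had no feeders, and 7640 to 8171 in ESVJ cells, which were depleted of them. It was 10958 to 11728 in Cdk4 +/- cells and 7246 to 8503 in Abca1 +/- cells. Of the 12 tested between E14 and ESVJ cells, 3 were higher (Timp3, Sparc and Col1a1) and 3 lower, Col1a2 (-0.60) and Fbln2 (-0.82) among them, with a median of -0.00. No marker of these lists had a signal of exactly 0, and the files used here carry no detection calls. The part of these cell states in the differences of Mdm2, Cdkn1a and Ccng1 was not tested.

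In the comparison that asks about the Cdk4 mutation, Gadd45a was the only member that changed, and it rose 2.03-fold in Cdk4 +/- cells over E14 cells. Mdm2, both Cdkn1a probe sets and Ccng1 did not pass. Of all probe sets 4.91% passed, 2.59% as higher and 2.33% as lower.

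Gadd45a had signals of 2915.6, 2481.2 and 2900.8 in Cdk4 +/- cells, against 1382.7, 1347 and 1306.4 in E14 cells. The lowest Cdk4 +/- array lay far above the highest E14 array, and 24.9% of all probe sets had groups without overlap. The log2 difference was 1.02 (limma adjusted p = 3.96e-04), with a 95% interval of the fold from 1.71 to 2.4. Only 0.531% of probe sets had a higher difference. The exact permutation test of 3 against 3 arrays gave p = 0.1, the smallest value it can give. The difference passed in 14 of 15 other settings and missed the threshold with all 16 arrays in one fit (adjusted p = 0.0651).

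Mdm2 had signals of 4611.9, 2984.2 and 3487.8 in Cdk4 +/- cells, against 4446.5, 4701.8 and 6137.4 in E14 cells. The groups overlapped, with 2 of the 3 Cdk4 +/- arrays below all E14 arrays. The log2 difference was -0.47, with a 95% interval from -0.97 to 0.03 (limma adjusted p = 0.27). Cdkn1a averaged 1138.1 ± 141.5 in Cdk4 +/- cells and 1184.3 ± 141.3 in E14 cells at 98067_at (SD, n = 3 each), a log2 difference of -0.06 with an interval from -0.41 to 0.30. At 94881_at the difference was -0.12, with an interval from -0.50 to 0.26. Ccng1 averaged 1758.1 ± 504.3 in Cdk4 +/- cells and 1674 ± 196.4 in E14 cells, a log2 difference of 0.04 with an interval from -0.36 to 0.44. These intervals do not hold a change as large as that of Gadd45a at Cdkn1a and Ccng1, nor a rise of that size at Mdm2.

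Few other p53 targets passed between Cdk4 +/- and E14 cells. Of 21 tested, Pml was higher (0.45, adjusted p = 0.0363) and Igfbp3 was lower (-0.93, adjusted p = 0.00443), and the median was -0.04 against 0.02 over all probe sets. Pml passed in 6 of 15 other settings. Gadd45b differed by 0.35 and did not pass. Of 19 genes of the ATF4 and stress list, 4 were higher in Cdk4 +/- cells and 0 lower, with a median of 0.29. Atf4, the transcription factor itself, averaged 2826 ± 155 in Cdk4 +/- cells and 1461 ± 105 in E14 cells (log2 0.94, adjusted p = 0.00219). Herpud1, a protein of the endoplasmic reticulum stress response, differed by 1.36 (adjusted p = 0.00212), Atf3 by 1.20 (adjusted p = 0.0104) and Trib3 by 1.86 (adjusted p = 0.0121). Without replicate 1 or 3 of the Cdk4 +/- line 2 genes of this list were higher, and without replicate 3 of E14 there were 8.

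Few genes of the other lists passed, where 2.59% of all probe sets were higher in Cdk4 +/- cells and 2.33% lower. Higher were 1 of 9 genes of cyclin G and PP2A, 1 of 25 repressed cell cycle genes and 2 of 17 of the BCL2 family and caspases. Of 20 p53 regulators 1 was higher and 1 lower. The single genes were Ccng2, the paralog of Ccng1 (0.84, adjusted p = 0.0164), the mitotic gene Prc1 (0.85, adjusted p = 0.00231) and the anti-apoptotic gene Mcl1 (0.55, adjusted p = 0.0469). Casp2, a caspase, was higher (0.53, adjusted p = 0.0355) and so was Huwe1, a ubiquitin ligase of p53 (0.60, adjusted p = 0.0415). Yy1, a transcription factor that aids p53 degradation, was lower (-0.96, adjusted p = 0.00436). Calls of Mcl1 held in 7 of 15 other settings, and those of Casp2 and Huwe1 in 6. Markers moved as well, in that Klf4 (0.79, adjusted p = 0.0075), Sall4 (0.63, adjusted p = 0.0148) and Nanog (0.62, adjusted p = 0.0374) of the ES list and Sparc (0.69, adjusted p = 0.0224) of the fibroblast list were higher in Cdk4 +/- cells. These were 3 of 12 ES markers and 1 of 12 fibroblast markers tested. Over 15 other settings 0 to 3 genes of the ES list and 0 to 1 of the fibroblast list were higher. Their part in the rise of Gadd45a was not tested.

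In the comparison that asks about the Abca1 mutation in ES cells, 0 of the 5 member probe sets passed. Across the array 2 of 7349 probe sets passed with limma (0.0272%), and 241 had an unadjusted p under 0.05. Mdm2 had signals of 1515.8, 1117 and 1041.3 in Abca1 +/- cells, against 1153.1, 1388.3 and 670.23 in ESVJ cells, a log2 difference of 0.23 with a 95% interval from -0.27 to 0.73. Gadd45a averaged 1782.7 ± 61.39 in Abca1 +/- cells and 1682.6 ± 186.6 in ESVJ cells (SD, n = 3 each), a log2 difference of 0.09 with an interval from -0.16 to 0.33. Cdkn1a differed by 0.18 (interval -0.17 to 0.54) at 98067_at and by -0.03 (interval -0.41 to 0.35) at 94881_at, and Ccng1 by -0.06 (interval -0.46 to 0.34). The groups overlapped at every member, while 7.93% of all probe sets had groups without overlap. Of the 21 further p53 targets 0 passed, with a median of -0.02.

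**Figure D3:**
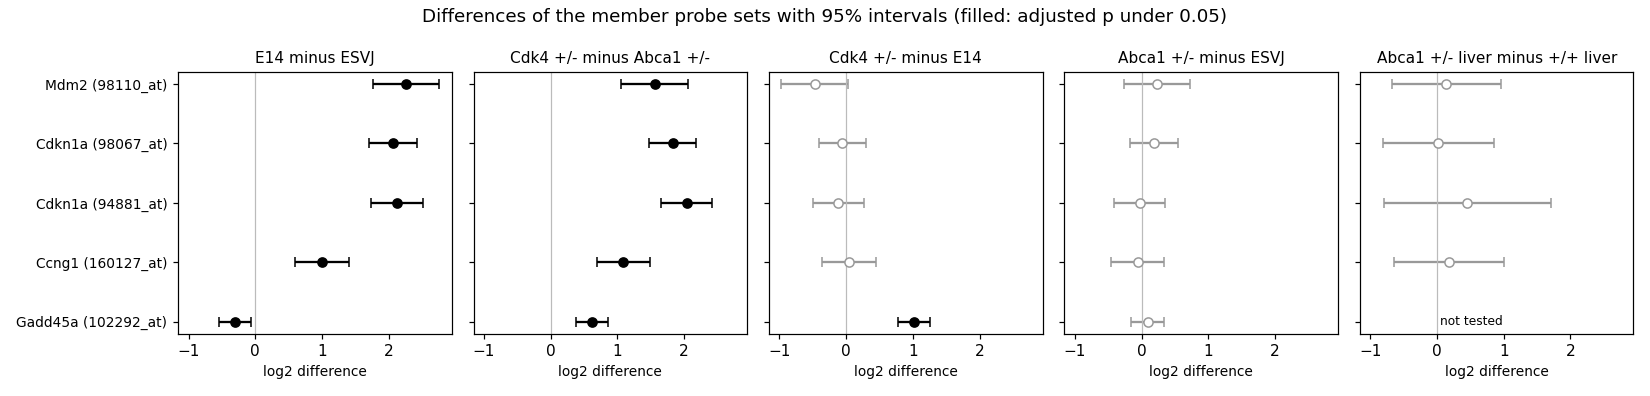
Log2 differences of the 5 member probe sets with 95% intervals in 5 comparisons, each named above its panel, with filled points for an adjusted p under 0.05. Both comparisons of lines show all 5 members past the threshold, the Cdk4 comparison shows only Gadd45a (1.02), and the Abca1 comparisons show none.

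The difference between the Cdk4 effect and the Abca1 effect in ES cells was tested directly. For Gadd45a it was 0.93 ± 0.16 on the log2 scale (limma adjusted p = 0.0213), and 0.626% of all probe sets passed. It was the only member to pass, the others lying between -0.70 for Mdm2 and 0.09 for Ccng1. Among the other p53 targets only Igfbp3 passed (-1.10, adjusted p = 0.0375), and it did so in 8 of 20 other settings. Of the 19 genes of the ATF4 and stress list 0 passed, with a median of 0.35 against 0.02 over all probe sets. In 20 other settings 0 to 2 of them were higher. For Gadd45a the value stayed between 0.85 and 1.01 in 20 other settings and passed in 12 of them. The call was lost without replicate 2 or 3 of Abca1 +/- (adjusted p = 0.0549 and 0.0594), replicate 3 of ESVJ (0.051), replicate 2 of E14 (0.0553) or replicate 1 or 3 of Cdk4 +/- (0.0764 and 0.0701), and also without an intensity trend (0.0503) and with all 16 arrays in one fit (0.415).

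In liver, 0 members passed between Abca1 +/- and +/+ animals, in a fit with 2 residual degrees of freedom. Of 7160 probe sets 1 passed with limma (0.014%), while 1321 had an unadjusted p under 0.05 and 51.7% had groups without overlap. Mdm2 had signals of 357.23 and 221.42 in Abca1 +/- livers, against 246.75 and 258.95 in +/+ livers, so that 1 Abca1 +/- liver lay above and 1 below both +/+ livers. Its log2 difference was 0.14, with a 95% interval from -0.67 to 0.96. Ccng1 had signals of 185.14 and 241.53 in Abca1 +/- livers, against 182.18 and 184.47 in +/+ livers, without overlap but by a small gap (log2 0.18, interval -0.65 to 1.0). The smallest p an exact permutation test of 2 against 2 arrays can give is 0.333.

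The 2 Cdkn1a probe sets disagreed in liver. At 98067_at the signals were 176.55 and 183.39 in Abca1 +/- livers, against 180.02 and 174.01 in +/+ livers, a log2 difference of 0.02. At 94881_at they were 496.75 and 121.35 in Abca1 +/- livers, against 239.76 and 127.63 in +/+ livers, a log2 difference of 0.45 with an interval from -0.80 to 1.71. The high value was that of replicate 1 alone, and without replicate 2 the difference became 1.34 and passed (limma adjusted p = 0.0305), with 1653 probe sets passing in that fit. Gadd45a had signals of 99.882 and 126.34 in Abca1 +/- livers, against 22.011 and 110.08 in +/+ livers, and was under the signal filter of 100. Without that filter its log2 difference was 0.72 ± 0.55 (limma adjusted p = 0.652), and it was 0.02 without replicate 1 of the +/+ livers, the array at 22.011.

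The Abca1 effect in liver was also set against that in ES cells, and 0 members passed where 9.86% of probe sets did. The differences of effects ranged from -0.16 for Cdkn1a at 98067_at to 0.64 for Gadd45a. Of the 21 other p53 targets tested 2 passed, a share close to that of all probe sets. They were Btg2 and Xpc (1.21 and 1.27, adjusted p = 0.0345 and 0.0422). Btg2 passed in 8 of 17 other settings and Xpc in 5 of 16. Single livers decided 2 of the member values. Without replicate 2 of the Abca1 +/- livers Cdkn1a reached 1.37 at 94881_at (limma adjusted p = 0.0138). Without replicate 2 of the +/+ livers Gadd45a reached 1.33 (limma adjusted p = 0.00923), which leaves the array at 22.011 as the only +/+ liver. Gadd45a was tested here only because its ES signal is high, so that value supports no difference between livers.

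All 4 genes had lower signals in +/+ livers than in the +/+ ES lines combined. Gadd45a had signals of 22.011 and 110.08 in +/+ livers, against 1306.4 to 1894.7 in E14 and ESVJ cells. It entered this fit through its ES signal, and its +/+ liver mean was under the filter of 100, so its log2 difference of -4.13 (limma adjusted p = 4.33e-11) has no firm size. The value was -3.43 without replicate 1 of the +/+ livers and -4.83 without replicate 2. Mdm2 fell to 12.3% (log2 -3.02 ± 0.25, adjusted p = 4.65e-09) and Ccng1 to 17.9% (log2 -2.48 ± 0.20, adjusted p = 3.25e-09). Cdkn1a fell to 35.3% at 98067_at (log2 -1.50 ± 0.18, adjusted p = 5.07e-07) and to 38.3% at 94881_at (log2 -1.38 ± 0.33, adjusted p = 0.00112). In this comparison 74.5% of 7841 probe sets passed, 48.2% as lower and 26.3% as higher, 69.4% had groups without overlap, and the median over all was -0.44. Quantile normalization moved that median to -0.16, and the share of calls that were higher to 44.5% from 35.3% under the scaling used here.

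At Mdm2, Gadd45a, Ccng1 and 98067_at every +/+ liver lay below every ES array, and at 94881_at they overlapped. The Cdkn1a difference between tissues depended on the ES line. Against E14 alone it was -2.53 at 98067_at and -2.45 at 94881_at, and against ESVJ alone -0.47 (limma adjusted p = 0.0424) and -0.32 (adjusted p = 0.45). At 94881_at 1 +/+ liver, at 239.76, lay within the range of the ESVJ arrays, and without the other +/+ liver the call was lost (log2 -1.0, adjusted p = 0.0503). Against ESVJ alone Mdm2 differed by -1.89, against E14 alone by -4.16. Of 21 further p53 targets, 14 were lower and 4 higher in +/+ livers, with a median of -2.48. Epha2, an ephrin receptor gene (-4.45), Sfn (-5.07) and Gtse1 (-4.56) were among the lower ones. Cd82, a tetraspanin (2.66), Perp (1.47), Plk3 (1.06) and Sesn1 (0.65) were the higher ones. All 25 cell cycle genes of the repressed list were lower, with a median of -3.61. The filter of 100 used the mean over ES and liver arrays, so genes could enter this fit through their ES signal. In the fit of livers alone, only 10 genes of the repressed list and 13 of the further p53 targets were above it. For genes under the filter in liver, the differences have no firm size. Hepatocyte markers summed to 328168 to 389459 in +/+ livers and to 583 to 1109 in E14 and ESVJ cells.

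Genes with the pattern most like each member were read from the 12 ES arrays, over 5575 genes, as a description. The arrays fall into groups whose means differ, and for Mdm2, Cdkn1a and Ccng1 these follow the split of feeder-independent and feeder-grown lines. The correlation of deviations from group means is therefore given beside that over all 12 arrays. For Mdm2 the nearest was Col4a1, a basement membrane collagen gene (r = 0.970, and 0.82 within groups), followed by Spint1 (0.970 and 0.74) and Macroh2a1 (0.969 and 0.70). For Cdkn1a, read at 98067_at, the nearest was Reep5 (r = 0.993, and 0.75 within groups). Gnas (0.989 and 0.67) and the keratin gene Krt18 (0.988 and 0.60) followed. The Cdkn1a probe sets 98067_at and 94881_at correlated with each other at 0.967 over all 12 arrays but at 0.03 within groups. The within-group values given for Cdkn1a are therefore not shown to reflect its expression. For Ccng1 the nearest was Mtpn (r = 0.987, and 0.93 within groups), followed by Foxq1 (0.976 and 0.91) and Slc39a6 (0.974 and 0.90). For Gadd45a it was Herpud1 (r = 0.940, and 0.66 within groups), followed by Ttc33 (0.937 and 0.62) and Klf10 (0.935, but -0.00 within groups). Herpud1 is the stress gene named above in the Cdk4 comparison. The likeness includes the arrays of that comparison, so it is no separate evidence of a tie between these genes.

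The 29 genes whose windows hold a p53 response element were set beside the members, as a description. Of these 5 have a probe set and 4 were tested in ES cells. Apart from Cdkn1a and Ccng1 they were Gtse1, a gene of the G2 and S phases (E14 minus ESVJ 0.44, adjusted p = 0.0397), and the predicted gene Gm15987 (-1.16, adjusted p = 0.00657).

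Trp53 transcripts were not measured by a probe set of their own, and 2 probe sets annotated to the pseudogene Trp53-ps were read after their annotation had been seen. They disagreed with each other. At 101617_s_at the signal was 335.13 ± 13.41 in E14 cells and 420.25 ± 89.65 in ESVJ cells (log2 -0.28), and at 101618_r_at it was 236.37 ± 50.56 in E14 cells and 429.6 ± 33.23 in ESVJ cells (log2 -0.80). Between +/+ livers and +/+ ES cells they differed by -2.27 and 0.79. Whether either probe set detects Trp53 was not tested.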

How the data were processed

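Total RNA of 16 samples was hybridised to U74Av2 arrays and processed by the authors with MAS5.0 at default settings, per the labels. The deposited values are linear intensity signals per probe set, 1 column per array, and the authors had scaled each array to a 2% trimmed mean of 1501 or 1502, as read from the values. Here each array was rescaled to a trimmed mean of 500, 32 was added and log2 taken. Control probe sets and those averaging under 100 on the arrays of a fit were left out. Groups were modelled in limma 3.58.1 (R 4.3.3) with moderated variances and an intensity trend, which compared group means: in a fit of the 12 ES arrays (8 residual degrees of freedom, 7349 probe sets), one of the 4 livers (2 and 7160) and one of all 16 arrays (10 and 7841). Each comparison had its p-values adjusted after Benjamini and Hochberg across every probe set tested, at a threshold of 0.05. The number of arrays limits the precision, with a median standard error of 0.17 in ES cells and 0.38 in liver.

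Genes came from the platform annotation, in which 10855 probe sets have 1 gene symbol, 396 several and 1237 none. Of several probe sets for 1 gene, the one with the highest mean stands for the gene in the lists. Named are all members, and, from the up to 4 genes per list and comparison that passed with the smallest p, those the text describes, besides Cdk4 and Abca1 in their own comparisons. For likeness, the 3 genes with the highest correlation are named. Exceptions, chosen after their values were seen, are Mdm4, Atf4 and Fbln2 between E14 and ESVJ cells, genes that complete a small count, Trp53-ps and the genes with a p53 element. Mdm4, Atf4, Klf4 and Nanog between Cdk4 +/- and Abca1 +/- cells were chosen in the same way. The members and lists were chosen with earlier results of these data known. The fits were tested on simulated data. Alternatives were other scalings (as deposited, or quantile), pseudocounts and filters, no trend, other sets of arrays in the fit, and each array left out in turn.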

Additional observations from a re-analysis of the deposited data

Results flagged for a closer look

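The effect on Gadd45a differed between the 2 mutations by a direct test: it was 0.93 on the log2 scale higher in the Cdk4 comparison than in the Abca1 comparison of ES cells (limma adjusted p = 0.0213). This call held in only 12 of 20 other settings. All 3 Cdk4 +/- arrays lay above all 3 E14 arrays, while the Abca1 +/- and ESVJ arrays overlapped. The effects come from lines that also differ in culture and RNA isolation, which cannot be told apart from the mutations.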

How the results depend on the processing

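Calls of Mdm2, Cdkn1a and Ccng1 between E14 and ESVJ cells, and between Cdk4 +/- and Abca1 +/- cells, passed in all 15 other settings. Gadd45a passed between Cdk4 +/- and Abca1 +/- cells in 14 of 15, missing with all 16 arrays in one fit (adjusted p = 0.0611). No paired analysis was possible because the labels give no replicate numbers. The replicate numbers used here only follow the order of the arrays in the series. Counts over all probe sets moved more than the members did. Between Cdk4 +/- and E14 cells 361 passed, against 196 with no filter, 227 with no trend, 174 with only the compared groups, and 35, with 0 members, in one fit of 16 arrays. Between Abca1 +/- and ESVJ cells 2 passed, against 1 with no filter, a filter of 200 or only the compared groups, and 0 in the fit of 16 arrays. For the difference of both effects 46 passed, against 16 with no filter, 19 with no trend and 1 in the fit of 16 arrays, with 0 members in the last 2. In liver 1 passed, against 3 with no filter, 0 with quantile normalization or no trend, and 1970 in the fit of 16 arrays. The cause was not tested. Leaving out 1 array gave 68 to 521 probe sets for Cdk4 +/- against E14, with the count reduced by over 1.5 times without replicate 1 (68) or 3 (76) of Cdk4 +/- and replicate 1 (106) or 2 (116) of E14, and 1 member each time. It gave 1 to 1 for Abca1 +/- against ESVJ, 5 to 93 for the difference of effects (0 to 1 members), 9 to 1653 in liver (0 to 1 members) and 196 to 2234 for liver against ES effects (0 to 1 members). The liver counts were 82 and 27 without replicate 1 or 2 of the +/+ livers, and 9 and 1653 without replicate 1 or 2 of the Abca1 +/- livers. Values of members that had not passed changed sign in some settings. Under quantile normalization the liver differences were -0.02 for Mdm2, -0.16 for Cdkn1a at 98067_at and -0.01 for Ccng1. With each array left out in turn, the following ranged over both signs. Between Cdk4 +/- and E14 cells these were Cdkn1a (-0.12 to 0.05 at 98067_at, -0.23 to 0.01 at 94881_at) and Ccng1 (-0.17 to 0.24). Between Abca1 +/- and ESVJ cells these were Mdm2 (-0.06 to 0.44), Cdkn1a at 94881_at (-0.17 to 0.16) and Ccng1 (-0.19 to 0.10). For the difference of both effects these were Cdkn1a at 94881_at (-0.28 to 0.05) and Ccng1 (-0.11 to 0.30). Between livers these were Mdm2 (-0.17 to 0.45) and Cdkn1a (-0.00 to 0.04 at 98067_at, -0.44 to 1.34 at 94881_at). For liver against ES effects these were Mdm2 (-0.40 to 0.22), Cdkn1a (-0.32 to 0.00 at 98067_at, -0.41 to 1.37 at 94881_at) and Gadd45a (-0.06 to 1.33).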
